A study of Mus musculus with 24 samples.

Results

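The 10 genes described here mark the cells that make new neurons in the adult hippocampus, and they were chosen by symbol out of the 36605 genes of the count table. They are Nes, Sox2 and Hopx of neural stem cells, Mki67 of dividing cells, Eomes of intermediate progenitors, and Neurod1, Sox4, Sox11, Igfbpl1 and Dcx of neuroblasts and immature neurons. All 10 were found by symbol, and all 10 passed the filter on low counts in every comparison.

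Polyadenylated hippocampal RNA of 24 adult mice was sequenced without strand information, and each of the 4 genotypes had 3 females and 3 males. The wt (-) mice were wild type, and the wt (+) mice carried wild type Egr1 with the Nestin-Cre transgene, which expresses Cre recombinase under the Nestin promoter in neural precursors. The FF (-) mice had Egr1 flanked by loxP sites and no Cre, and the FF (+) mice had both and are the conditional knockout, Egr1cKO. Cre driven this way recombines in precursors, so neurons and glia that descend from them carry the deletion, while cells of other origin do not. Mouse numbers of the wt and the FF animals came from 2 separate ranges, so cohort and floxed allele cannot be told apart between wt and FF. Nothing in the labels says how mice within a group were related beyond being separate animals.

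New neurons arise in the subgranular zone of the dentate gyrus. Radial glia-like stem cells there, many of them quiescent, give rise to dividing intermediate progenitors, whose daughters become neuroblasts that extend processes and mature into granule neurons. Several of the markers are not exclusive to this lineage in adult brain, since Sox2 and Hopx are also expressed by astrocytes, Nes by vascular cells and Neurod1 by mature granule neurons. In bulk tissue, fewer cells of a type and less RNA per cell cannot be told apart.

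The libraries held 18025168 to 34955004 counts. Levels are given as CPM, counts scaled to library size, here with TMM factors. Egr1 was at 4.89 to 10.2 CPM in the 6 FF (+) mice and at 47.5 to 149 CPM in the other 18, so the targeted gene followed the labels in every library. Hippocampal markers were present throughout, with Slc17a7 at 1223 to 1730, Camk2a at 3472 to 5863 and Prox1 at 58.7 to 185 CPM. A pair of libraries, the female wt (+) replicate 1 and the male FF (+) replicate 3, had the second lowest and the lowest Prox1. Calb1, another granule neuron gene, was also low in the former at 111 CPM but not in the latter at 153 CPM, where it ranked 5th highest of 24. Choroid plexus RNA varied too, with Ttr at 6.36 to 1910 CPM.

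Hopx, an atypical homeodomain protein that marks quiescent stem cells, was the member that separated the mice by Cre. The gene lies on chr5:77086988-77115121 (GRCm38, minus strand). Its RefSeq promoter windows on GRCm38.p6 are shown because its level separated the mice by Cre, and that of Mki67 because it holds a match to the Egr1 motif. Each window was cut to the 250 bases upstream of the start site, and bases of annotated exons were then trimmed off. This left 250 bases at the upstream start of Hopx, 240 at the internal start and 250 at Mki67, all minus strand and 5′ to 3′. Capitals mark the match, read here on the complementary strand.
Hopx upstream start, chr5:77115124-77115373: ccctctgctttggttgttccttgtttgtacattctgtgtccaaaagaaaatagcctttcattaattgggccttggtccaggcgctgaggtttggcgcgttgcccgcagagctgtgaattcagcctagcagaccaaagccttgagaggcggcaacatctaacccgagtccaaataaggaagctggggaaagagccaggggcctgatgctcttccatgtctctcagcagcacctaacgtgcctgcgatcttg
Hopx internal start, chr5:77095278-77095517: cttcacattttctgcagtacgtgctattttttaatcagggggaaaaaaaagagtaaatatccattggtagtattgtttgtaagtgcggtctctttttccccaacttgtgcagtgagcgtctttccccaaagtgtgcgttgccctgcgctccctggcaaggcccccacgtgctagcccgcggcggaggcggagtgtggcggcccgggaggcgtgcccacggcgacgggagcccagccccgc
Mki67, chr7:135716380-135716629: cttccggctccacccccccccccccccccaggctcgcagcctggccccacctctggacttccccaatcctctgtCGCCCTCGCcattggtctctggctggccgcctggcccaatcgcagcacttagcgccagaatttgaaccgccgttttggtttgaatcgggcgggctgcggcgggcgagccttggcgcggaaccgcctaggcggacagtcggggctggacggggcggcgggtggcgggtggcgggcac

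The motif searched was GCGNGGGCG on both strands, with its subset GCGTGGGCG, both in untrimmed windows of 300 bases. It occurred in 5.552% of 32851 windows, in 6.272% of the 27025 genes with a window, and among the 9 members that had a window in Mki67 and Neurod1. The subset occurred in 0.6119% of windows, in 0.7068% of genes and among members in Neurod1. The match in Mki67 was GCGAGGGCG. In Neurod1 no match was left in the 135 bases that remained after the cut and the trimming, and that window is not shown. Neither motif was found in the windows of Hopx or Nes. A match of letters describes the sequence and says nothing of binding.

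Per kilobase of annotated exon, Hopx was also the most abundant member. Its level was 21.6 ± 4.38 RPKM (SD, n = 24), against 18.6 ± 2.86 for Sox2, and Hopx exceeded Sox2 in 17 of 24 mice. Neurod1 followed at 9.94 ± 1.36, Sox4 at 5.87 ± 0.803, Sox11 at 3.52 ± 0.349, Dcx at 2.15 ± 0.541 and Nes at 1.52 ± 0.353 RPKM. Igfbpl1 at 1.05 ± 0.289, Mki67 at 0.572 ± 0.109 and Eomes at 0.150 ± 0.0978 RPKM were lowest. Neighbours in this order kept it in 20 or more mice, except Hopx and Sox2, whose ranges overlapped widely. Eomes rested on 0 to 35 counts per mouse, Igfbpl1 on 32 to 107 and Mki67 on 85 to 189, and differences of the sizes seen in the other members were not detectable for Eomes at this depth.

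**Figure D1:**
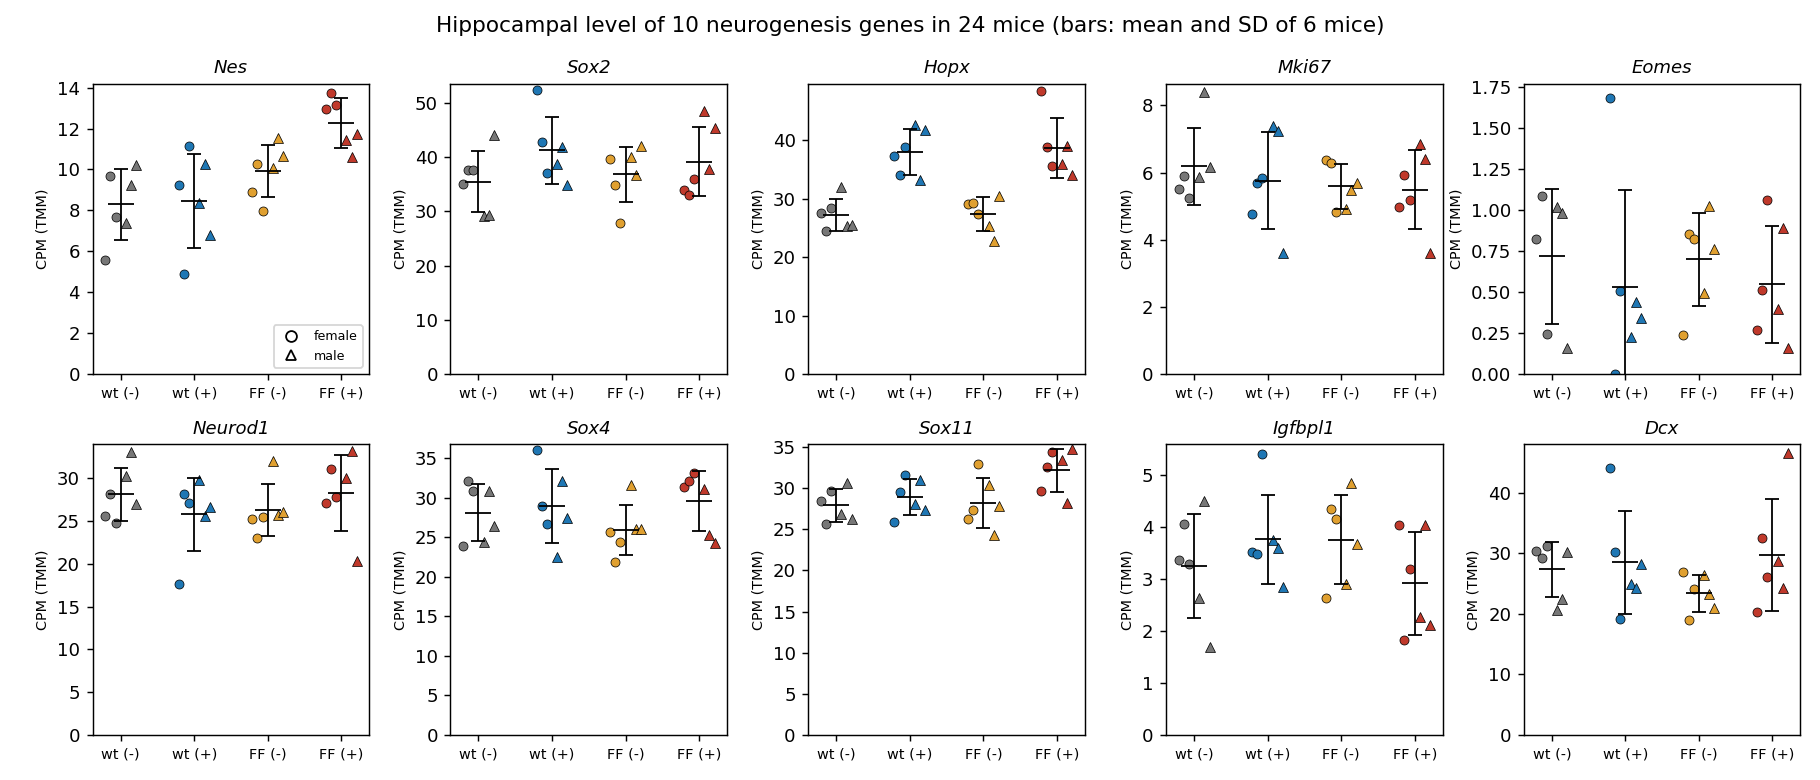
Level of each of the 10 genes in every mouse, in TMM-scaled CPM on a linear axis from 0, by genotype, with females as circles and males as triangles, and with the mean and SD of 6 mice as bars (the lower bar of Eomes in wt (+) runs below 0 and is cut by the axis). Hopx is higher in both Cre-carrying genotypes than in both genotypes without Cre, Nes is highest on average in FF (+), and the groups of the other 8 genes overlap.

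To determine which members differed with the transgene alone, wt (+) mice were compared with wt (-) mice. Hopx was at 37.9 ± 3.90 CPM in wt (+) and 27.2 ± 2.79 CPM in wt (-) (SD, n = 6 each). The wt (+) females were at 37.2, 34.0 and 38.9 CPM and the males at 42.6, 33.1 and 41.8 CPM. The wt (-) females were at 27.5, 24.5 and 28.4 CPM and the males at 32.1, 25.3 and 25.5 CPM. Every wt (+) mouse was thus above every wt (-) mouse, a separation that 0.128% of the 17167 genes tested showed in this direction. The log2 fold change was 0.48 (SE 0.086), a fold of 1.40, and it ranked 3rd of 17167 genes by p. With edgeR the adjusted p was 0.205, so Hopx was not called, and neither was any other gene (0% called, with 1038 genes at an unadjusted p under 0.05). DESeq2 called Hopx (adjusted p = 0.00155) among 20 genes, 0.14% of those it adjusted. Choroid plexus RNA separated the same mice, with its 10 markers summing to 58.1 to 2089 CPM in wt (+) and 37.4 to 49.5 CPM in wt (-). Of the 6 tested, 6 had a positive log2 fold change, with a median of 1.92, and 5 had an unadjusted p under 0.05, beside 6.05% of all genes, but edgeR called 0. Within FF these sums overlapped, at 35.7 to 1152 CPM with Cre and 39.2 to 1045 CPM without. The part of choroid plexus RNA in the Hopx values was not tested.

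The other 9 members overlapped between wt (+) and wt (-). Sox2, a transcription factor that maintains stem cells, was at 41.3 ± 6.15 against 35.5 ± 5.66 CPM (SD, n = 6 each), a log2 fold change of 0.22 (SE 0.11, adjusted p = 0.754 with edgeR). Nes, which encodes the intermediate filament nestin, was at 8.45 ± 2.31 against 8.30 ± 1.74 CPM, a log2 fold change of 0.037 (SE 0.19). Igfbpl1 stood at 0.21 (SE 0.22) and Dcx at 0.069 (SE 0.15) on the log2 scale. Of the 10 members, Hopx was the 1 with an unadjusted p under 0.05, beside 6.05% of all genes. The median log2 fold change of the members was 0.051, beside 0.013 for all genes, and 7 of 10 were positive, beside 53.7%.

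The same question within the floxed background compares FF (+) with FF (-), where Cre also removes Egr1. Hopx was at 38.6 ± 5.16 CPM in FF (+) and 27.4 ± 2.87 CPM in FF (-) (SD, n = 6 each). The FF (+) females were at 48.4, 38.8 and 35.5 CPM and the males at 35.9, 39.0 and 34.1 CPM. The FF (-) females were at 29.0, 29.3 and 27.3 CPM and the males at 25.3, 22.8 and 30.5 CPM. Again no FF (+) mouse was as low as any FF (-) mouse, which held for 0.197% of 17265 genes in this direction. The log2 fold change was 0.49 (SE 0.088), 6th of 17265 genes by p, with an adjusted p of 0.124 in edgeR and 0.000779 in DESeq2, which called 79 genes (0.578%). The mice of this comparison are not those of the wt comparison. The difference of the 2 Cre differences, tested as an interaction, was 0.014 on the log2 scale (SE 0.13, adjusted p = 0.966 with edgeR).

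**Figure D2:**
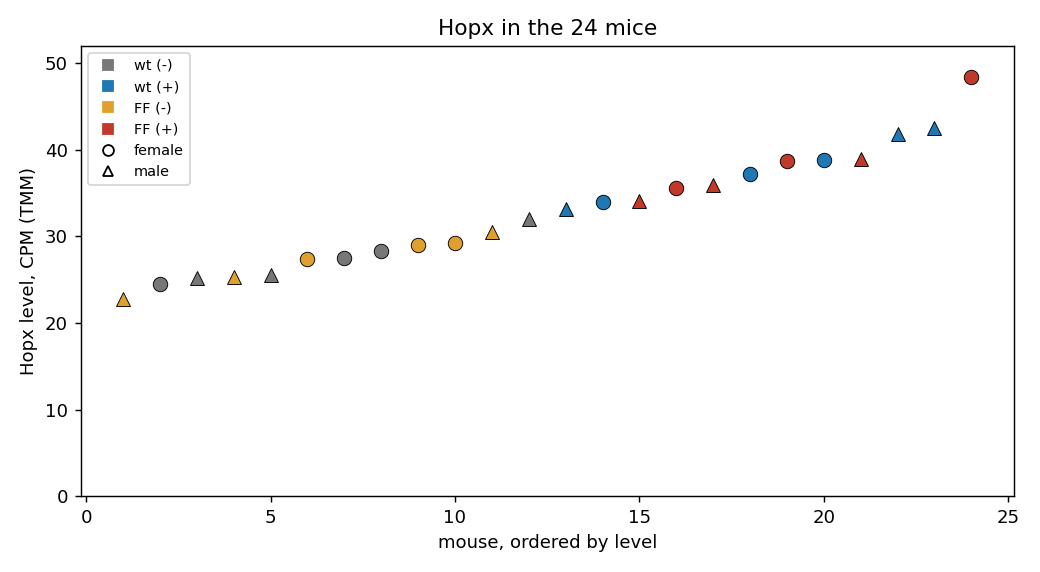
Hopx level of the 24 mice in TMM-scaled CPM, on an axis from 0, with the mice ordered from lowest to highest, coloured by genotype and with females as circles and males as triangles. The 12 mice without Cre sit between 22.8 and 32.1 CPM and the 12 mice with Cre between 33.1 and 48.4 CPM.

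Over all mice, the 12 with Cre were at 33.1 to 48.4 CPM of Hopx, with a median of 38.0, and the 12 without at 22.8 to 32.1 CPM, with a median of 27.4. A fit of Cre over all 24 mice, with floxed allele and sex as covariates, was added after this separation had been seen, so its p-value is not independent of that choice. It gave a log2 fold change of 0.49 (SE 0.063), a fold of 1.40 and an adjusted p of 0.000495 with edgeR. Hopx ranked 1st of 17124 genes by p, and it was the 1 gene (0.00584%) whose groups did not overlap in the higher direction. In this fit 6 genes (0.035%) were called, and 658 (3.84%), with Hopx and Sox11 among the members, had an unadjusted p under 0.05. DESeq2 called 15 (0.041%), Hopx among them. Beside Hopx, Aqp4, Tgfbi and Hapln1 were among those higher in mice with Cre, and C4b was lower. The other 9 members were not called.

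Because astrocytes also express Hopx, their markers are given beside it. Aqp4, the water channel of astrocyte endfeet, was at 148 to 265 CPM with Cre and 101 to 180 CPM without, with a log2 fold change of 0.62 (SE 0.088, adjusted p = 0.00136 with edgeR). Within FF it was called (0.82, SE 0.11, adjusted p = 0.00776) and within wt it was not (0.41, SE 0.10, adjusted p = 0.581). The difference of these differences was 0.42 (SE 0.16, unadjusted p = 0.0125, adjusted p = 0.166 with edgeR). The other 9 astrocyte markers were called in no comparison. With Aqp4 counted, 6 of 10 markers had a positive log2 fold change over all mice, with a median of 0.0081. Within wt it was 6 of 10, with a median of 0.028, and within FF 7 of 10, with a median of 0.090. The summed level of the 10 markers was 4607 to 6151 CPM in wt (+), 4834 to 6275 in wt (-), 5190 to 6561 in FF (+) and 4794 to 6446 in FF (-), so it overlapped between mice with and without Cre. Gfap, the intermediate filament of astrocytes and radial glia, did not overlap within wt, at 386 to 482 CPM in wt (+) and 305 to 370 CPM in wt (-) (log2 fold change 0.33, SE 0.066, adjusted p = 0.274 with edgeR). Of the 17167 genes tested, 0.128% did not overlap in this direction. Within FF Gfap overlapped, at 273 to 515 CPM with Cre and 288 to 412 CPM without (0.21, SE 0.13, adjusted p = 0.421 with edgeR). Gfap was listed with the radial glia-like stem cell genes, of which 12 of 20 were positive within wt, with a median of 0.029. Within FF 15 of 20 were positive, with a median of 0.10. The part of astrocytes in the Hopx difference was not tested. Reads of the antisense gene Hopxos, which shares 412 exonic bases with Hopx, cannot be separated in these libraries, and Hopxos itself was listed at 0 to 0.454 CPM.

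Nes was the member with the largest log2 fold change between FF (+) and the other mice. FF (+) females were at 13.0, 13.7 and 13.2 CPM and FF (+) males at 11.4, 10.6 and 11.7 CPM. FF (-) females were at 8.91, 10.2 and 7.98 CPM and FF (-) males at 10.1, 11.5 and 10.7 CPM. In females every FF (+) mouse was above every FF (-) mouse, and above all 9 other females, which 3.4% of 18433 genes were, whereas the males overlapped. Within FF the log2 fold change was 0.30 (SE 0.11, unadjusted p = 0.0126, adjusted p = 0.255 with edgeR), so Nes was not called.

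Against the other 18 mice, FF (+) were at 12.3 ± 1.21 CPM of Nes (SD, n = 6) and the rest at 8.88 ± 1.87 CPM (SD, n = 18). The log2 fold change was 0.47 (SE 0.13), a fold of 1.38, ranked 83rd of 18433 genes, with an adjusted p of 0.187 in edgeR and 0.0791 in DESeq2. FF (-) lay between, with a log2 fold change of 0.26 against wt (-) (SE 0.13, adjusted p = 0.524). The sex difference of the Cre difference within FF was 0.48 (SE 0.18, unadjusted p = 0.0195, adjusted p = 0.999 with edgeR). Neither reached the threshold.

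Vascular markers stood beside Nes. All 8 endothelial markers had a positive log2 fold change in FF (+) against the rest, beside 48.2% of all genes, with a median of 0.24. At an unadjusted p under 0.05 there were 3 of them, beside 15.1% of all genes, and none was called. All 8 were also positive in FF (-) against wt (-), mice without Cre, with a median of 0.20. Within FF 7 of the 8 were positive, with a median of 0.12. Their summed level was 179 to 205 CPM in FF (+), 152 to 192 in FF (-), 115 to 231 in wt (+) and 105 to 225 in wt (-). Of 8 pericyte markers 7 were positive, with a median of 0.18. The gene whose level followed Nes most closely over the 24 mice was Eng, an endothelial receptor (Pearson r = 0.84). Other marker lists had positive or negative medians in FF (+) against the rest, with no gene called. The median was 0.52 for 8 meningeal and fibroblast markers, 0.44 for 10 striatal and 0.20 for 8 microglial ones, with 3, 4 and 4 at an unadjusted p under 0.05. The part of these cells and of vascular cells in the Nes values was not tested.

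Dcx, a microtubule-binding protein of migrating neuroblasts, and the neuronal transcription factor Sox11 also had unadjusted p-values under 0.05 within FF. Dcx ran from 20.4 to 46.6 CPM in FF (+), with a median of 27.3, and from 19.0 to 26.8 CPM in FF (-), with a median of 23.6. The log2 fold change was 0.33 (SE 0.15, adjusted p = 0.305 with edgeR), and without the male FF (+) replicate 3, at 46.6 CPM, it was 0.17. The wt (-) mice were at 20.6 to 31.2 CPM of Dcx, with a median of 29.7, above that of FF (+). FF (-) against wt (-) had a log2 fold change of -0.21 (SE 0.11, adjusted p = 0.524 with edgeR). Sox11 ran from 28.2 to 34.7 CPM in FF (+), with a median of 33.0, and from 24.3 to 32.9 CPM in FF (-), with a median of 27.6. Its log2 fold change was 0.18 (SE 0.083, adjusted p = 0.295). The groups overlapped for both genes.

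Sox4, the relative of Sox11 in the same family of neuronal differentiation factors, was without overlap in FF females but not in FF males. Nes was too, but the 2 genes differed against wt females. FF (+) females were at 31.4, 32.1 and 33.1 CPM and FF (-) females at 25.6, 21.9 and 24.4 CPM. FF (+) males were at 31.1, 25.2 and 24.3 CPM and FF (-) males at 31.6, 26.1 and 26.0 CPM. The wt (-) females were at 24.0, 32.1 and 30.9 CPM and the wt (+) females at 36.0, 28.9 and 26.6 CPM. So no FF (+) female was above all 9 other females, unlike for Nes. FF females did not overlap and FF males did, but the test of the sex difference gave 0.48 (SE 0.17, unadjusted p = 0.0134, adjusted p = 0.999 with edgeR). Neurod1, Hopx and Nes were likewise without overlap in FF females. These 4 of 10 members stand beside 12.3% of all genes in the higher direction, and Hopx, the 1 member in FF males, beside 3.97%. The annotation places another gene on the opposite strand over 2616 exonic bases of Sox4, and that gene is not listed in the count table, so Sox4 counts may include its reads.

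Igfbpl1, an insulin-like growth factor binding protein-like gene of young neurons, was the member with the most negative difference within FF among those above 1 CPM. It ran from 1.82 to 4.03 CPM in FF (+), with a median of 2.73, and from 2.62 to 4.84 CPM in FF (-), with a median of 3.91. The log2 fold change was -0.36 (SE 0.23, adjusted p = 0.438 with edgeR), beside 0.21 within wt. The difference of these differences was -0.57 (SE 0.32, adjusted p = 0.339).

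The remaining members had small or imprecise differences within FF. The log2 fold change was 0.073 (SE 0.089) for Sox2, -0.033 (SE 0.16) for Mki67, the proliferation antigen, and 0.10 (SE 0.11) for Neurod1, a bHLH factor needed for granule neurons. Cerkl shares 201 exonic bases with Neurod1 and was at 1.35 to 3.68 CPM. Eomes, the T-box factor of intermediate progenitors, had -0.34 (SE 0.46) within FF and -0.48 (SE 0.64) within wt. Its level was 0.157 to 1.06 CPM in FF (+) and 0 to 1.68 CPM in wt (+). The wt (+) mice held the lowest and highest values of all mice, but 1 mouse was at 1.68 CPM and the others at 0 to 0.504.

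**Figure D3:**
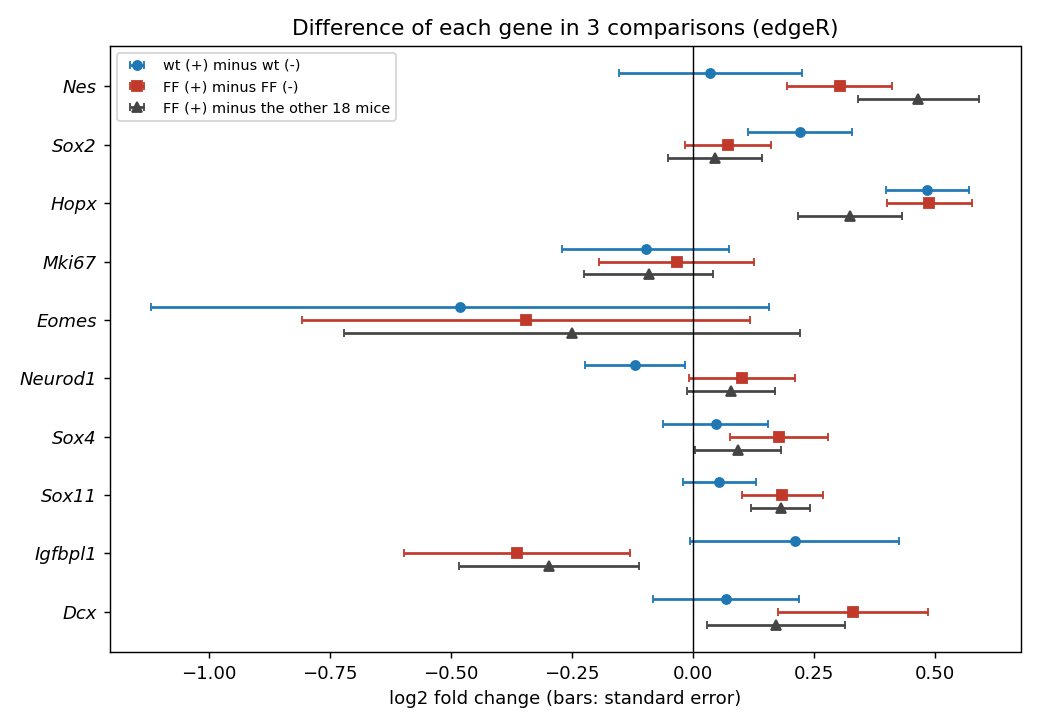
Log2 fold change of each gene from edgeR, with bars of 1 standard error, for wt (+) against wt (-), FF (+) against FF (-), and FF (+) against the other 18 mice, which share the FF (+) mice. Hopx lies near 0.48 in both Cre comparisons, Nes at 0.30 and 0.47 in those of FF (+), and the bars of Eomes are the widest.

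In counts, edgeR called 0 of 10 members within FF, where 4 of 17265 genes (0.0232%) were called, Egr1 and C4b lower and Tnc and Aqp4 higher. Against the rest it called 0 of 10 members and 1 of 18433 genes (0.00543%), Egr1. Members at an unadjusted p under 0.05 were 4 of 10 within FF, beside 16.2% of genes, and 3 of 10 against the rest, namely Nes, Hopx and Sox11, beside 15.1%. The members' median log2 fold change was 0.14 within FF and 0.086 against the rest, where the medians of all genes were -0.0071 and -0.0076. For the interaction of Cre with the floxed allele it was 0 members and 1 gene (0.00543%), Egr1, with 0 members and 19.2% of genes at an unadjusted p under 0.05. Between FF (-) and wt (-) no member was called (0 of 10, 0% of genes, with 0 members and 9.68% of genes at an unadjusted p under 0.05). Between females and males no member was called either (0 of 10, beside 0.0818% of genes, and 0 of 10 beside 6.21% at an unadjusted p under 0.05). In the tests of the Cre difference between sexes, 0 of 10 members were called in wt and in FF, with 0% of genes in each. At an unadjusted p under 0.05 there were 0 of 10 in wt, beside 2.17% of genes, and 2 of 10 in FF, Nes and Sox4, beside 4.22%.

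The wider pathway was read from 111 other genes of stem cells, proliferation, neuroblasts, granule neurons and niche signals. edgeR called none of them in any comparison. Within wt 10 of 103 tested had an unadjusted p under 0.05, within FF 18 of 104 and in FF (+) against the rest 11 of 108, which is 9.71%, 17.3% and 10.2% beside the 6.05%, 16.2% and 15.1% of all genes. By stage, the shares within FF were 1 of 20 stem cell genes, 4 of 25 proliferation genes, 6 of 29 neuroblast genes, 0 of 9 granule neuron genes and 7 of 21 niche signals. Within wt they were 5 of 20, 2 of 24, 2 of 29, 0 of 9 and 1 of 21.

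Members were also compared with each other over the 24 mice, in 45 pairs of log2(CPM + 1) values. Dcx and Igfbpl1 went in opposite directions, with Pearson's r = -0.56 (permutation p = 0.00458, adjusted p = 0.103) and Spearman's rho = -0.64 (permutation p = 0.00095, adjusted p = 0.0427). Without the 2 mice farthest from the median of Igfbpl1 r was -0.55, and it was -0.32 within wt and -0.80 within FF. This was the 1 pair with an adjusted p under 0.05, on the rank measure alone. Sox2 and Dcx, named after their values were seen, had r = 0.56 (permutation p = 0.0044, adjusted p = 0.103) and rho = 0.47 (permutation p = 0.0203, adjusted p = 0.456). Without the 2 mice farthest from the median of Sox2, r was 0.45. The female wt (+) replicate 1 and the male FF (+) replicate 3, highest in Dcx, had 52.3 and 45.4 CPM of Sox2. These values ranked 1st and 3rd of the 24. The pair was not computed without both of these mice.

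Dcx and Neurod1 had r = -0.48 (permutation p = 0.0196, adjusted p = 0.220) and rho = -0.19 (permutation p = 0.385, adjusted p = 0.824). That relation rested on 2 mice, since r was 0.12 without them. The female wt (+) replicate 1 had 44.1 CPM of Dcx and 17.6 of Neurod1, and the male FF (+) replicate 3 had 46.6 and 20.3. Their Prox1, a transcription factor of granule neurons, was 78.6 and 58.7 CPM, the lowest of the 24, so high Dcx came with low Neurod1 and low Prox1 in these libraries. Ttr of choroid plexus was highest of all in the former, at 1910 CPM, and at 9.70 CPM in the latter. The dopamine receptor Drd2 of striatum was second highest in the latter, at 4.62 CPM. The part of RNA from neighbouring tissue in the Dcx values was not tested. Without the female wt (+) replicate 1 the log2 fold change of Dcx within wt was -0.087, and without the male FF (+) replicate 3 that against the rest was -0.0024, so the direction turned.

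**Figure D4:**
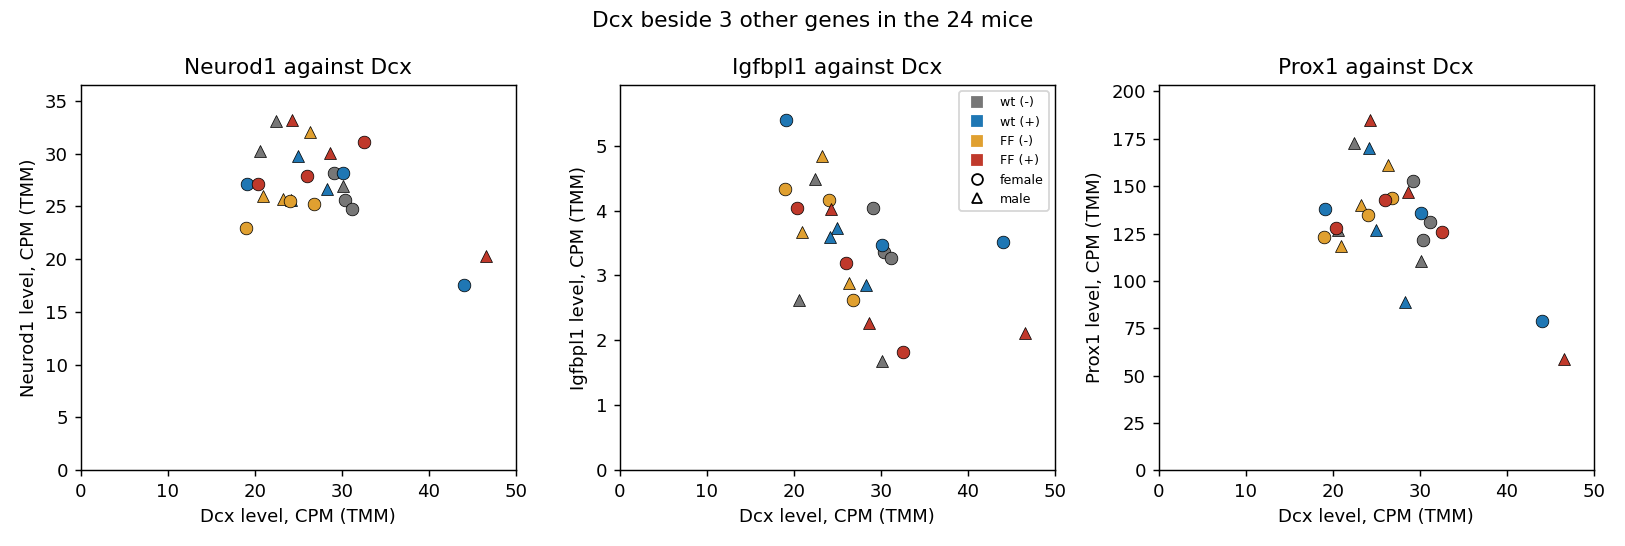
Level of Neurod1, Igfbpl1 and Prox1 plotted against that of Dcx, in TMM-scaled CPM on axes from 0, with 1 point per mouse coloured by genotype, females as circles and males as triangles. The female wt (+) mouse at 44.1 and the male FF (+) mouse at 46.6 CPM of Dcx stand apart with low Neurod1 and Prox1, and Igfbpl1 tends to be lower where Dcx is higher.

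Other pairs set for description were weak. Sox11 and Dcx had r = 0.12 (permutation p = 0.565, adjusted p = 0.865) and rho = 0.053 (permutation p = 0.804, adjusted p = 0.952), and Sox4 and Sox11 r = 0.19 (permutation p = 0.359, adjusted p = 0.865) and rho = 0.16 (permutation p = 0.448, adjusted p = 0.824). Sox2 and Hopx had r = 0.12 (permutation p = 0.563, adjusted p = 0.865) and rho = 0.072 (permutation p = 0.737, adjusted p = 0.896). Mki67 and Eomes had r = 0.079 (permutation p = 0.715, adjusted p = 0.893) and rho = -0.013 (permutation p = 0.952, adjusted p = 0.952). Without the 2 mice farthest in the first gene named, r was -0.16, 0.30, -0.017 and -0.18 for these pairs in turn.

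The gene most like each member by Pearson's r over the 24 mice, among 15115 genes of at least 1 CPM on average, was taken as a description. Beside Nes with Eng, it was Zfp36l2 for Sox2 (0.84), Tgfbi for Hopx (0.74), Stxbp6 for Mki67 (0.77) and Baiap2l1 for Eomes (0.70). For the later stages it was Ppfia2 for Neurod1 (0.87), Tnfrsf19 for Sox4 (0.80), Hrk for Sox11 (0.76), Il20rb for Igfbpl1 (0.75) and Car10 for Dcx (0.85). In no case was the closest gene another member. Tgfbi, the closest to Hopx, was at 2.63 to 5.96 CPM in mice with Cre and 1.71 to 3.89 CPM in mice without.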

How the data were processed

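Hippocampal polyadenylated RNA of 24 mice was sequenced by the authors, who trimmed reads with Trim Galore, mapped them to mm10 (GRCm38) with STAR and deposited raw counts per gene as whole numbers for 36605 Ensembl genes. The submitters' processing notes name Trim Galore 3.8.2 and STAR 2.7.9, which differ from the paper's versions, and the annotation is not given in the sources used here. Symbols and exonic lengths came from GENCODE M21, which named 36493 genes. Totals of 18025168 to 34955004 counts per mouse set the precision. The lowest chi-square per gene between 2 mice of a group was 5.04, so no library was a copy of another in its group. This value cannot show that libraries are separate animals, and each was taken as 1 replicate from the labels. Same-numbered mice did not deviate together (mean r -0.0027), so the numbers do not pair mice.

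Counts were tested in R 4.3.3 with edgeR 4.0.16 (TMM, filterByExpr with a minimum count of 10, quasi-likelihood F test, Benjamini-Hochberg over all genes tested). A call needed a fold change of 1.2 or more together with an adjusted p no higher than 0.05, and for interactions the adjusted p alone. The SE is the size of the log2 fold change divided by the square root of F. Sex was a covariate except against the rest. Correlations used 100000 permutations, two-sided, of all 24 mice without regard to genotype or sex. Differences between groups therefore enter their p-values. Alternatives were DESeq2 1.42.0, edgeR run with DESeq2 size factors, tests of unfiltered genes, no fold minimum, a replicate block, other covariates, a fit shared by all 24 mice, the pseudocount and each mouse left out. The fit of Cre over all mice was added after the data were seen. Tests were also tested on simulated data.

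The members and lists were chosen with earlier results of these data known. The naming rule covered the members, Egr1, list genes that were called, the gene closest to each member and set pairs of members. Outside this rule, single marker genes that were not called are also named, among them Gfap, Prox1, Calb1, Ttr and Drd2. So are the called genes Tnc, C4b and Hapln1, which are in no list, and genes that overlap a member. Since no promoter window was used for Igfbpl1, its promoter is not analysed here. Some results that the naming rule covers are not reported here. P-values of the group tests set a difference against the estimated spread between these mice.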

Additional observations from a re-analysis of the deposited data

Results flagged for a closer look

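In 6 of 40 groups of 6 mice, formed by 10 genes and 4 genotypes, 1 mouse lay farther from its group than Dixon's 95% critical ratio allows (the gap to the nearest mouse over the range). Chance flags about 1 in 20 groups. Hopx in the female FF (+) replicate 1 was at 48.4 CPM, with the other FF (+) mice at 34.1 to 39.0 (ratio 0.659). Mki67 in the male wt (-) replicate 2 was at 8.40 CPM beside 5.24 to 6.16 (ratio 0.709). Eomes in the female wt (+) replicate 1 was at 1.68 CPM beside 0 to 0.504 (ratio 0.700). In the same mouse Neurod1 was at 17.6 CPM beside 25.6 to 29.8 (ratio 0.654). Neurod1 in the male FF (-) replicate 1 was at 32.0 CPM beside 23.0 to 26.0 (ratio 0.665). Igfbpl1 in the female wt (+) replicate 3 was at 5.39 CPM beside 2.85 to 3.74 (ratio 0.651).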

How the results depend on the processing

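Counts of called genes depended on the tool, the filter and single mice, and the cause was not tested. With DESeq2 they were 20 within wt and 79 within FF (1 member each, Hopx), 42 against the rest, 335 for the interaction, 2 for FF (-) against wt (-), 3 for the Cre difference between sexes within FF and 15 for Cre over all mice. With no filter on low counts they were 156 within wt (1 member, Hopx), 808 within FF (2 members, Hopx and Dcx), 7 against the rest, 1173 for the interaction, 163 for FF (-) against wt (-), 79 for sex, 17 and 59 for the Cre difference between sexes in wt and FF, and 38 for Cre over all mice. A fit shared by all 24 mice called 1 member within FF, Hopx (adjusted p = 0.0302), and sex as a covariate gave 3 genes against the rest.

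The replicate number as a block, which does not pair the mice, gave 7 genes within FF and called no member within wt or within FF (Hopx adjusted p = 0.0848 and 0.0729). It left 5 genes over all mice.

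Leaving out each mouse in turn gave 0 to 229 genes within wt, 2 to 304 within FF, 1 to 215 against the rest, 1 to 1526 for the interaction, 0 to 1 for FF (-) against wt (-), 0 to 2 for the Cre difference between sexes within FF and 2 to 9 for Cre over all mice. Members called ran from 0 to 1 within wt and from 0 to 1 within FF, and Hopx was the 1 each time. The male wt (+) replicate 2 gave the 229 (with Hopx) and 1526, and the male wt (+) replicate 3 gave 1 within wt. Without the male FF (-) replicate 1 there were 304 genes (with Hopx) within FF, 325 for the interaction and 1 for FF (-) against wt (-). Without the male FF (-) replicate 3 Hopx was called within FF. Without the male FF (+) replicate 2 there were 10 genes within FF and 8 against the rest. Without the male FF (+) replicate 3 there were 215 against the rest. Without the male FF (+) replicate 1 there were 3 against the rest and 2 for the Cre difference between sexes within FF. Without the female FF (+) replicates 1 or 3 there were 2 genes within FF. Without the female wt (+) replicates 1 and 2 there were 9 and 2 against the rest. Over all mice 2 or 3 genes were called without the male wt (-) replicate 2, female wt (-) replicates 1 or 2, male wt (+) replicate 1, male FF (-) replicates 1 or 3, female FF (-) replicate 1, male FF (+) replicate 1 or female FF (+) replicates 2 or 3, and Hopx was called in all 24 fits, at log2 fold changes of 0.45 to 0.51. Over all mice Aqp4 was also called in 24 of 24 such fits, C4b in 17, Tgfbi in 13 and Hapln1 in 6, and within FF Tnc was called in 10 and C4b in 8 of 12.

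With single mice left out the log2 fold change changed sign for members near 0. It ran from -0.087 to 0.18 for Dcx, -0.17 to 0.030 for Mki67, -0.092 to 0.14 for Nes and -0.026 to 0.10 for Sox4 within wt. It ran from -0.12 to 0.069 for Mki67 within FF. Against the rest it ran from -0.0024 to 0.26 for Dcx, -0.16 to 0.0065 for Mki67 and -0.024 to 0.089 for Sox2. For the interaction it ran from -0.19 to 0.91 for Eomes, -0.060 to 0.054 for Hopx and -0.046 to 0.18 for Mki67, and over all mice from -0.032 to 0.034 for Neurod1. In these comparisons no member changed sign under the alternatives that kept all mice. The adjusted p of Hopx over all alternatives ran from 0.000171 to 0.530 within wt, from 2.83e-05 to 0.481 within FF and from 1.17e-08 to 0.00234 over all mice.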
